A study of Bos taurus with 9 samples.

Results

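WNT signaling genes were followed in bovine endometrial cells that were left untreated or were given steroid hormones with or without interferon tau (IFNT), a type I interferon by which the ruminant embryo signals its presence to the mother. Members were chosen by gene symbol alone and comprise the WNT ligands, the frizzled (FZD) and LRP5 and LRP6 receptors, the R-spondins and their LGR receptors, the secreted antagonists of the DKK, SFRP and WIF families, and the intracellular members CTNNB1, AXIN, NKD, LEF1 and TCF. This rule found 52 of the 17162 genes in the table, namely 15 ligands, 7 R-spondins and LGR receptors, 12 FZD and LRP receptors, 9 secreted antagonists and 9 intracellular members. RNA was sequenced in 9 libraries, 3 of each of 3 groups, which are numbered 1 to 3 here as in the labels (CON1, GA1, GB1). CON cells received no treatment. GA cells received estradiol (E2) at 1 nM and progesterone (P4) at 100 nM in a 12 h step, and GB cells received the same hormones for 12 h and then IFNT at 100 ng/mL for another 12 h. All cells were wild type, from primary cultures of Holstein uteri obtained at an abattoir and passaged before use. The sources used here do not give the number of cows behind the cultures or the time at which CON and GA cells were collected. The p-values therefore measure the spread between these libraries, which may be technical, and IFNT and the extra time in culture cannot be told apart in the comparisons with GB.

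WNT proteins are secreted lipid-modified ligands that bind FZD receptors. With the co-receptors LRP5 and LRP6 they stop the destruction complex, built on AXIN, from degrading beta-catenin (CTNNB1), which then acts in the nucleus with LEF1 and the TCF proteins, whereas ligands such as WNT5A mostly signal through other branches that steer cell shape and movement. DKK proteins block the LRP co-receptors, SFRP proteins and WIF1 hold ligands outside the cell, and R-spondins bound to LGR receptors keep FZD proteins at the surface. In the uterus, WNT signals take part in gland formation and in the exchange between stroma and epithelium around implantation.

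The labels call the cells epithelial, and the study identified its cultures by immunofluorescence for cytokeratin protein, images of which were not analysed here. At the level of RNA the usual epithelial markers were at or near 0. All 11 epithelial markers of the list, keratins and CDH1 among them, had a mean under 1 FPKM (a fragment count scaled by exon length and by the mapped reads), and their summed level ranged from 1.29 to 2.04 FPKM in CON, from 1.61 to 1.93 in GA, and from 1.8 to 2.58 in GB. The defining markers KRT18 and CDH1 reached at most 0.67 and 0.14 FPKM in any library. The 10 stromal fibroblast markers, collagens and VIM among them, summed to between 17232 and 17850 FPKM in CON, between 17402 and 17810 in GA, and between 15612 and 15740 in GB. The sums were lower in each GB library than in any other library, but the list did not move as a whole. In GB vs. CON 6 of the 10 passed an adjusted p of 0.05, against 33.5% of all genes. Of these, 5 were lower (VIM, COL1A2, COL3A1, PDGFRB and FN1) and 1 was higher (PDGFRA, log2FC 0.38). DCN and LUM were higher in every GB library than in CON without passing, but were highest in GA. In GA vs. CON they passed as higher (log2FC 0.39 and 0.24) and PDGFRB as lower (-0.34), against 0.453% of all genes. In GB vs. GA DCN and LUM passed as lower (log2FC -0.24 and -0.15), as did VIM, COL1A2, COL3A1 and FN1, against 19.2% of all genes. PDGFRA passed as higher (log2FC 0.33), against 9.87% of all genes, and COL1A1, PDGFRB and THY1 did not pass. The endothelial list summed to at most 3.44 FPKM. The immune list summed to between 21.2 and 27.43 FPKM over all libraries, with CD14 at 16.69 to 23.27 and CD68 at 3.13 to 4.43. Several stromal levels moved with the treatment, and the part of the marker levels in the WNT results was not tested. In bulk RNA a smaller number of cells of a type and less RNA per cell cannot be told apart. As a check of the labels, the interferon-stimulated gene ISG15 was between 1.76 and 7.01 FPKM in CON and between 5536 and 5616 in GB, and the estrogen-regulated gene GREB1 was between 0.09 and 0.38 in CON and between 2.12 and 2.44 in GA.

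Because FPKM is scaled by length, levels can be set side by side between genes. In CON the members ranged from 468.3 FPKM for WNT5A to genes at 0. Over the 9 libraries 17 members had a mean of at least 10 FPKM and 6 had a mean of at least 100. These 6 were WNT5A, WNT2, DKK1, DKK2, DKK3 and CTNNB1. In each CON library the antagonists together were somewhat below the ligands, at 664 to 682.6 against 739.1 to 822.4 FPKM. In GB the antagonists lay above the ligands, at 1076 to 1103 against 766.7 to 805.3 FPKM. These sums hold only the 9 antagonists chosen by symbol. Antagonists among the further pathway genes described below are not in them, such as IGFBP4 with means of 660.7 FPKM in CON and 499.4 in GB. The order of the ligands and the antagonists therefore depends on which genes are counted. The FZD and LRP receptors summed to less, between 127.1 and 143.2 FPKM over all libraries. A total of 35 members had a mean of at least 0.5 FPKM over the 9 libraries and were tested, and 17 were not.

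**Figure D1:**
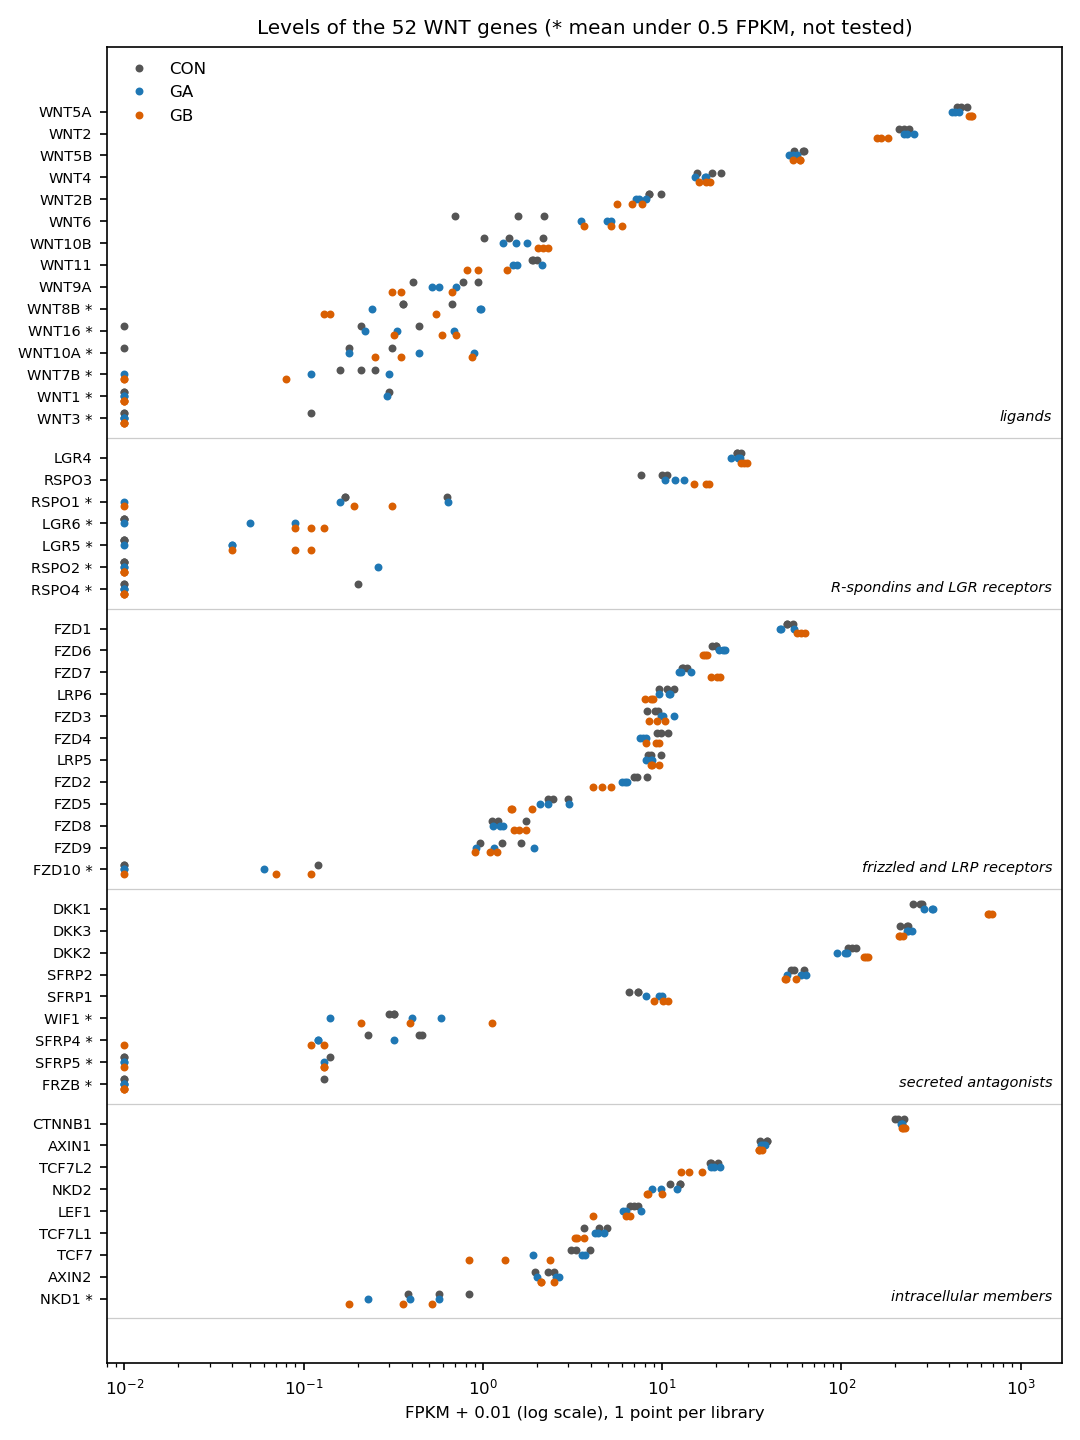
FPKM + 0.01 of each of the 52 WNT genes on a log axis, 1 point per library, colored by group and ordered by role. The 6 highest genes have means of at least 100 FPKM, while most of the 17 untested genes, marked by a star, lie below 0.5 FPKM.

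Differences were tested with limma on log2(FPKM + 0.5) over all 12578 genes that passed the filter, so a log2 fold change (log2FC) understates the change of low genes. Calls required |log2FC| over 1 together with an adjusted p under 0.05. In GB vs. CON 3 of 35 tested members were called, against 4.01% of all tested genes. WNT6 and DKK1 were higher (2.94% of all genes were called higher) and TCF7 was lower (1.07% of all genes). At an adjusted p under 0.05 without a limit on the fold 17 members passed, against 33.5% of all genes, 7 of them higher (16.2% of all genes) and 10 lower (17.3% of all genes). The CON and GB libraries did not overlap for 8 members that were higher and 10 that were lower in GB, against 22.2% and 23.9% of all genes. The median log2FC was -0.08 over the members and -0.02 over all tested genes. In GB vs. GA the called member was DKK1, against 3.64% of all genes and 2.66% called higher. At the adjusted p alone 13 members passed, against 29.0% of all genes, with 6 higher and 7 lower against 9.87% and 19.2%. The GA and GB libraries did not overlap for 9 members higher and 9 lower in GB, against 15.7% and 31.0% of all genes, and the median log2FC was -0.08 for the members and -0.08 for all genes. The split of 6 higher and 7 lower at the adjusted p moved with the scaling between libraries, to 6 and 4 at equal sums (TPM), 7 and 3 with median-of-ratios factors and 6 and 5 with quantile normalization. The median log2FC over all genes moved too, to -0.0486, -0.00336 and -0.0592 in that order. The shares of all genes passing under these scalings were not counted. The comparisons share the GB libraries, so their values are given side by side below. Each CON library had a higher GC content of its reads than any of the other libraries. With this content as a covariate 2 of the 17 members, DKK1 and WNT5A, passed the adjusted p in GB vs. CON, with adjusted p-values of the other 15 between 0.0894 and 0.964. In GB vs. GA 12 of the 13 passed with the covariate, FZD5 was lost and TCF7L1 was gained. The share of all genes passing with the covariate was not counted. A loss shared by all genes therefore cannot be told from one of the members. The part of GC content and that of the treatment cannot be told apart in the comparisons with CON.

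**Figure D2:**
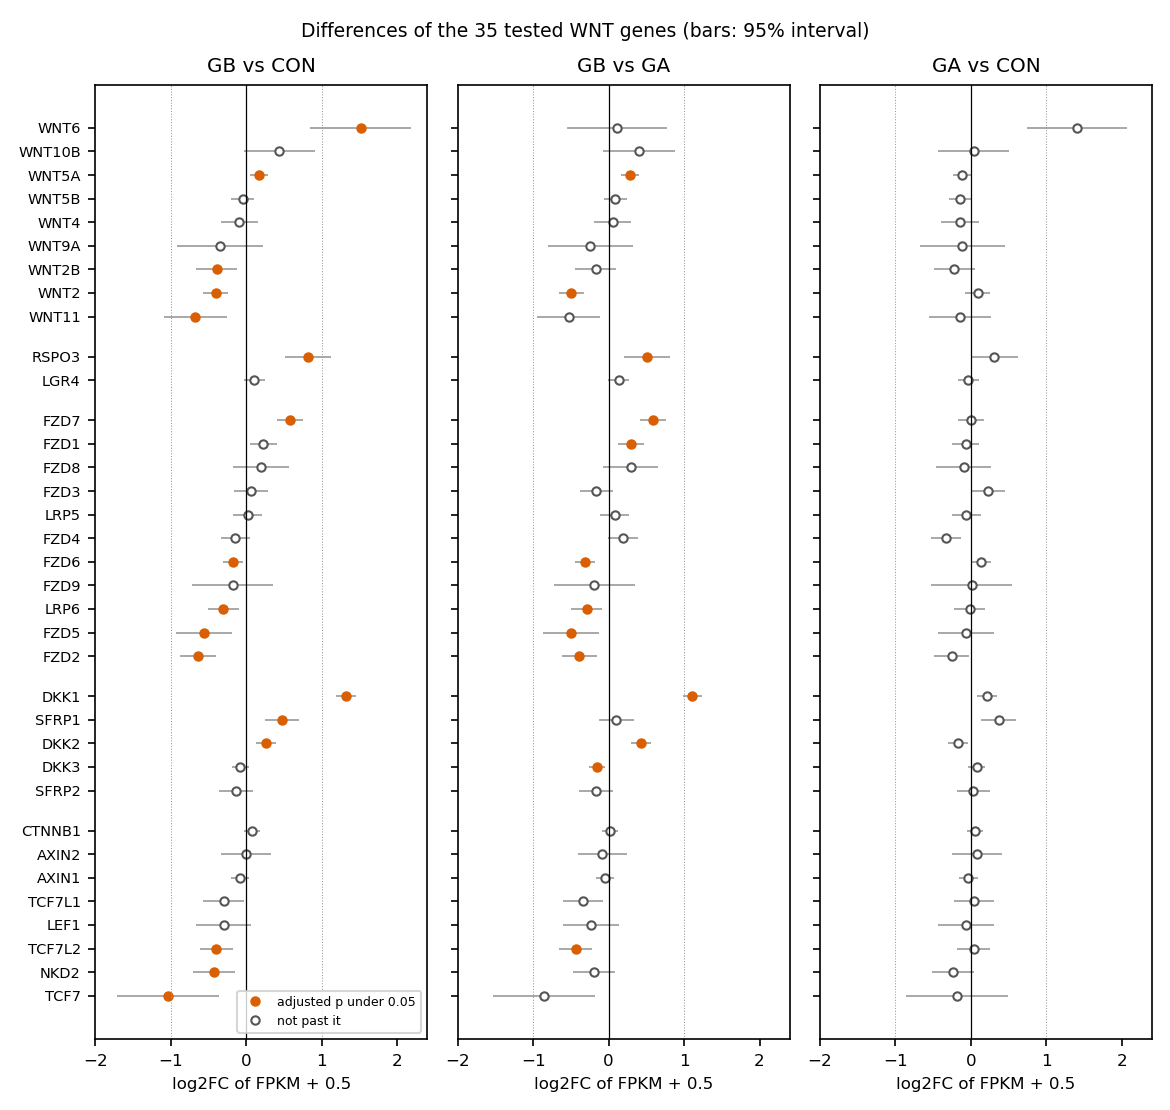
Log2FC of FPKM + 0.5 with its 95% interval for the 35 tested WNT genes against CON and GA for GB, and against CON for GA, with dotted lines at -1 and 1. DKK1 lies beyond 1 in both comparisons with GB, and the interval of WNT6 lies above 0 in both comparisons with CON.

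Of the ligands, 9 of 15 were tested, and in GB vs. CON 2 rose and 3 fell at an adjusted p under 0.05, against 16.2% and 17.3% of all genes. WNT6 was the tested ligand with the largest log2FC in GB vs. CON, and its GA libraries overlapped those of GB. It is a ligand known in the uterus from the decidualizing stroma of rodents, and it was also measured by qRT-PCR in this study. The primer pair of that assay is printed because it defines the stretch of mRNA that was amplified, in lower case throughout as no base is singled out. Each primer has 20 bases, of which 60.0% are G or C.
WNT6 forward primer: gccagttccagttccgcttc
WNT6 reverse primer: gtctcccggatgtcctgttg
WNT6 read 2.17, 1.56 and 0.69 FPKM in CON, 3.51, 5.14 and 4.91 in GA and 5.17, 3.64 and 5.99 in GB. Every GA and GB library was above every CON library, and GA and GB overlapped. Its log2FC was 1.51 (SE 0.29, adjusted p = 0.00392 by limma) in GB vs. CON. Against GA the log2FC of GB was 0.11 (95% interval -0.56 to 0.77, adjusted p = 0.821). In GA vs. CON it was 1.41 (SE 0.29), with all libraries apart, but the adjusted p of 0.0770 missed the threshold. With the GC content of the reads as a covariate, the GB vs. CON value was 1.58 with an adjusted p of 0.139.

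WNT5A, the main ligand of the beta-catenin-independent branch, was the most abundant member. It read 441.6, 501.1 and 462.3 FPKM in CON, 429.9, 453.0 and 415.8 in GA and 534.6, 527.3 and 516.4 in GB. The GB libraries lay above all others, while CON and GA overlapped. The rise was 0.28 on the log2 scale in GB vs. GA (SE 0.053, adjusted p = 0.00381) and 0.17 in GB vs. CON (SE 0.053, adjusted p = 0.0347). The smaller difference did not pass without CON1, CON3, GA1, GB1, GB2 or GB3 (adjusted p between 0.0532 and 0.104), with quantile normalization (0.0545), without the variance trend (0.0671) or in a fit of the 2 groups alone (0.0586), and with the GC covariate it was 0.36 and passed (0.0140).

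WNT2, a ligand of the beta-catenin branch made by stromal cells of many organs, moved the other way. It read 208.9, 222.8 and 238.6 FPKM in CON, 232.7, 224.7 and 254.9 in GA and 182.1, 165.4 and 157.5 in GB. All GB libraries were below all others. WNT2 fell by 0.50 on the log2 scale in GB vs. GA (SE 0.072, adjusted p = 0.000949) and by 0.41 in GB vs. CON (SE 0.072, adjusted p = 0.00245). With the GC covariate its GB vs. CON value was -0.39 (adjusted p = 0.128). The balance of the ligand pool shifted accordingly, with WNT5A at 58.2% to 60.9% of the summed ligand FPKM in CON, 55.0% to 58.7% in GA, but 66.4% to 67.4% in GB. WNT2 held 27.1% to 30.1% in CON, 29.1% to 33.7% in GA, but 20.5% to 22.6% in GB. For both shares the GB libraries lay outside the range of the other groups. These shares were not tested apart from the genes that make them up.

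**Figure D3:**
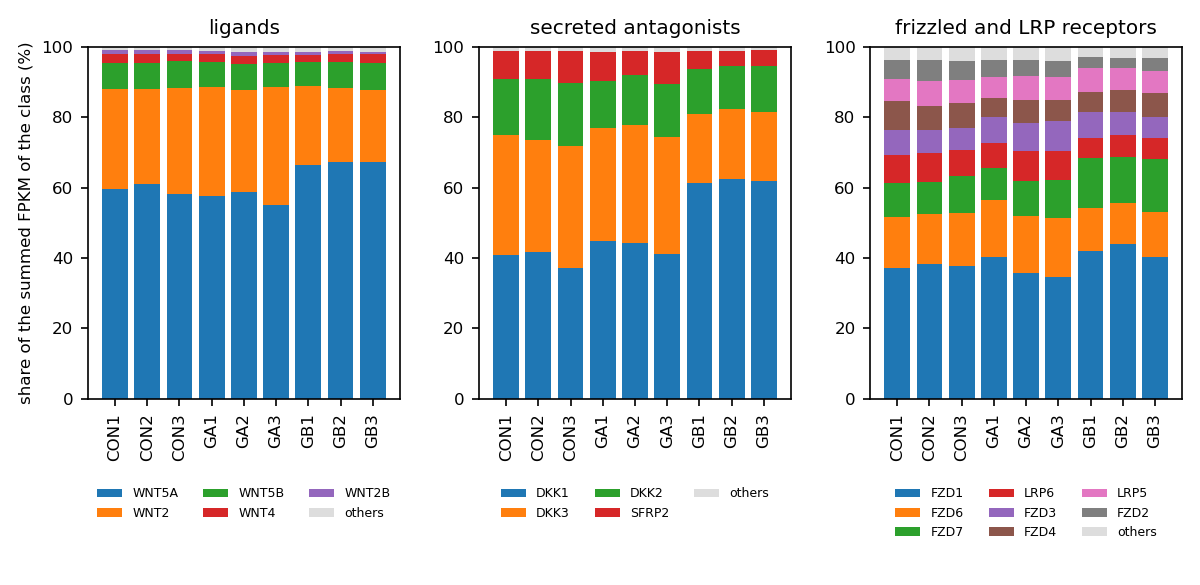
Percent of the summed FPKM of the class held by each main gene in each of the 9 libraries, for the ligands, the secreted antagonists, and the FZD and LRP receptors. In the 3 GB libraries WNT5A takes 66.4% to 67.4% of the ligands and DKK1 61.2% to 62.5% of the antagonists, more than in any CON or GA library.

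WNT2B, a close relative of WNT2, read 8.42, 9.9 and 8.41 FPKM in CON, 7.1, 8.14 and 7.46 in GA and 7.71, 6.77 and 5.61 in GB. Its GB libraries were below CON but overlapped GA. The log2FC was -0.39 in GB vs. CON (SE 0.12, adjusted p = 0.0321) and -0.17 in GB vs. GA (adjusted p = 0.320). The call did not pass without CON1, CON2, GB2 or GB3 (adjusted p between 0.05001 and 0.0996), with no filter (0.0556) or in a fit of the 2 groups alone (0.0627), and with the GC covariate the log2FC was -0.02 (adjusted p = 0.964). Its gene overlaps the protein-coding gene ST7L, so that reads could be shared where strand was not used in counting, as for WNT5B with FBXL14 and LEF1 with LOC132345570. WNT11, a ligand of the beta-catenin-independent branch, read 1.99, 1.89 and 1.88 FPKM in CON, 2.13, 1.53 and 1.47 in GA and 1.36, 0.81 and 0.93 in GB. The GB libraries were the lowest of all. Its log2FC was -0.67 in GB vs. CON (SE 0.18, adjusted p = 0.0197) and -0.53 in GB vs. GA (adjusted p = 0.0565), and the first did not pass without CON1, GB2 or GB3 (adjusted p between 0.0544 and 0.0653), and was -0.41 with the GC covariate (0.524). Of the 4 remaining tested ligands, WNT5B (53.9 to 58.6 FPKM in GB) and WNT4 (16.0 to 18.4 FPKM in GB) had 95% intervals in GB vs. CON of -0.20 to 0.10 and -0.34 to 0.16 on the log2 scale. WNT10B and WNT9A were low, with CON means of 1.51 and 0.70 FPKM and intervals of -0.03 to 0.91 and -0.92 to 0.22. In CON the order WNT5A, WNT2, WNT5B, WNT4, WNT2B and WNT11 had no overlap between neighbors, whereas WNT11, WNT10B, WNT6 and WNT9A each overlapped with the next.

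R-spondins and their receptors were represented by RSPO3 and LGR4, the members of this class that could be tested. RSPO3, an R-spondin made by stromal cells, read 10.63, 7.65 and 9.96 FPKM in CON, 10.31, 11.78 and 13.17 in GA and 14.99, 18.19 and 17.57 in GB. GB lay above both other groups, which overlapped each other. RSPO3 rose by 0.82 on the log2 scale in GB vs. CON (SE 0.14, adjusted p = 0.00167) and by 0.51 in GB vs. GA (SE 0.14, adjusted p = 0.0204). With the GC content of the reads as a covariate the GB vs. CON value was 0.24 (adjusted p = 0.331). The GB vs. GA difference did not pass without GA1, GA2, GB2 or GB3 (adjusted p between 0.0530 and 0.0724). LGR4, the receptor that can carry the R-spondin signal, held 26.1 to 27.6 FPKM in CON, 24.3 to 27.2 in GA, with 27.5 to 29.9 in GB, and had an interval of -0.04 to 0.24 on the log2 scale in GB vs. CON and an adjusted p of 0.227. LGR5 and LGR6, which mark stem cells of several epithelia, were listed at 0 in every CON library and reached at most 0.12 FPKM elsewhere. RSPO1 stayed at or below 0.63 FPKM, RSPO2 was above 0 in GA1 alone and RSPO4 in CON2 alone.

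Among the receptors 11 of 12 were tested, and in GB vs. CON 1 rose and 4 fell, against 16.2% and 17.3% of all genes, while in GB vs. GA 2 rose and 4 fell at an adjusted p under 0.05, against 9.87% and 19.2%. FZD7 and FZD2, which both belong to the same FZD subfamily as FZD1, moved in opposite directions. FZD7 read 13.04, 12.86 and 13.67 FPKM in CON, 12.47, 12.68 and 14.51 in GA and 20.28, 18.72 and 21.12 in GB, so that GB stood apart from both. It rose by 0.58 on the log2 scale against each group (SE 0.077, adjusted p = 0.000441 against CON and 0.000521 against GA). FZD2 read 7.22, 8.26 and 6.99 FPKM in CON, 6.39, 5.94 and 6.22 in GA and 4.58, 4.12 and 5.19 in GB, with no overlap between any of the groups. It fell by 0.64 in GB vs. CON (SE 0.10, adjusted p = 0.00144) and by 0.39 in GB vs. GA (SE 0.10, adjusted p = 0.0207). The GB vs. GA difference of FZD2 did not pass without GA1, GA3, GB1 or GB2 (adjusted p between 0.0566 and 0.0708) or with median-of-ratios factors (0.0582). With the GC covariate the GB vs. CON differences of FZD7 and FZD2 did not pass (adjusted p = 0.0894 and 0.153).

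FZD1, the most abundant receptor of the class, read 49.57, 53.94 and 49.43 FPKM in CON, 54.66, 45.36 and 46.16 in GA and 59.72, 62.87 and 56.64 in GB. The GB libraries were the highest. It rose by 0.30 on the log2 scale in GB vs. GA (SE 0.078, adjusted p = 0.0200), and its 0.23 in GB vs. CON missed the threshold (adjusted p = 0.0514). The rise did not pass without GA2, GA3, GB1 or GB2 (adjusted p between 0.0549 and 0.0733). FZD6, the next receptor by level, read 19.06, 19.94 and 19.99 FPKM in CON, 21.83, 20.65 and 22.53 in GA and 17.42, 16.8 and 17.87 in GB. The groups did not overlap, with GA highest and GB lowest. FZD6 fell by 0.31 in GB vs. GA (SE 0.057, adjusted p = 0.00346) and by 0.17 in GB vs. CON (SE 0.057, adjusted p = 0.0424). The latter did not pass when any CON or GB library, or GA1, was left out (adjusted p between 0.0540 and 0.129). Nor did it pass with the replicate number as a block (0.0590), no filter (0.0521), median-of-ratios factors (0.0503), the GC covariate (0.325) or the 2 groups alone (0.0703).

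FZD5 read 2.3, 2.96 and 2.46 FPKM in CON, 2.06, 2.29 and 3.01 in GA and 1.43, 1.86 and 1.45 in GB. GB was below both other groups, which overlapped. Its log2FC was -0.56 in GB vs. CON (SE 0.16, adjusted p = 0.0270) and -0.50 in GB vs. GA (SE 0.16, adjusted p = 0.0488). The first did not pass without CON2, CON3, GB1 or GB3 (adjusted p between 0.0540 and 0.0848) or with the GC covariate (0.371). The second did not pass without CON1, CON3, GA2, GA3, GB1 or GB3 (0.0593 to 0.158), with the replicate block (0.0583) or with any of 8 other settings (0.0503 to 0.077), namely a pseudocount of 1, either other filter, any other scaling, the GC covariate and a fit of the 2 groups alone. It passed in 5 of 20 alternatives. LRP6, the co-receptor of the beta-catenin branch, read 10.64, 11.67 and 9.63 FPKM in CON, 9.64, 10.91 and 11 in GA and 7.98, 8.83 and 8.65 in GB. GB was again lowest, and CON and GA overlapped. LRP6 fell by 0.31 in GB vs. CON (SE 0.091, adjusted p = 0.0279) and by 0.29 in GB vs. GA (SE 0.091, adjusted p = 0.0385). The first did not pass without CON1, CON2, GB1 or GB3 (adjusted p between 0.0580 and 0.0886) or with the GC covariate (0.478). The second did not pass without CON1, GA2, GA3 or any GB library (0.0534 to 0.118) or with any of the 3 other scalings (0.0585 to 0.117) or no filter (0.0639). Its partner LRP5 had an interval of -0.17 to 0.21 on the log2 scale in GB vs. CON. FZD3, FZD4, FZD8 and FZD9 did not pass in either comparison with GB.

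Of the 9 secreted antagonists 5 were tested, and 3 rose in GB vs. CON at an adjusted p under 0.05, against 16.2% of all genes. The member with the smallest p in both comparisons with GB was DKK1, which blocks LRP5 and LRP6. It read 279.7, 276.0 and 251.2 FPKM in CON, 321.5, 323.6 and 290.4 in GA and 658.6, 689.2 and 668.4 in GB. The groups did not overlap, with GB highest and CON lowest. The ratio of the GB mean to that of CON was 2.50 and to that of GA 2.15. The log2FC was 1.32 in GB vs. CON (SE 0.057, adjusted p = 1.496e-07) and 1.11 in GB vs. GA (SE 0.057, adjusted p = 5.873e-07), and both passed under each of the 20 alternatives run. The summed FPKM of these 9 antagonists was higher as well, at 1076 to 1103 in GB against 664 to 682.6 in CON and 708.1 to 733.3 in GA. DKK1 made up 37.2% to 41.6% of that sum in CON, 41.0% to 44.8% in GA, but 61.2% to 62.5% in GB.

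The relatives of DKK1 moved less. DKK2, which also binds LRP6, read 109.1, 115.2 and 120.9 FPKM in CON, 94.72, 104.5 and 108.0 in GA and 137.7, 133.9 and 140.7 in GB. The groups did not overlap, with GA lowest and GB highest. DKK2 rose by 0.42 on the log2 scale in GB vs. GA (SE 0.059, adjusted p = 0.000742) and by 0.26 in GB vs. CON (SE 0.059, adjusted p = 0.00946). With the GC covariate its GB vs. CON value was 0.19 (adjusted p = 0.334). DKK3, a divergent member that is not a typical LRP blocker, read 231.5, 212.2 and 234.7 FPKM in CON, 232.2, 246.9 and 235.7 in GA and 212.5, 219.7 and 210.3 in GB. GB was below GA and overlapped CON. Its log2FC of -0.15 in GB vs. GA (SE 0.048, adjusted p = 0.0413) did not pass when any GA or GB library was left out (adjusted p between 0.0620 and 0.136), with the replicate block (0.0761), at equal sums (0.0669), without the variance trend (0.0772) or with median-of-ratios factors (0.216).

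SFRP1, a soluble FZD-like protein that binds ligands, read 7.33, 7.28 and 6.48 FPKM in CON, 9.6, 8.14 and 10.0 in GA and 10.75, 10.16 and 8.99 in GB. Every library with hormones was above CON, and GA and GB overlapped. SFRP1 rose by 0.47 on the log2 scale in GB vs. CON (SE 0.10, adjusted p = 0.00686), and by 0.58 with the GC covariate (adjusted p = 0.110). Its log2FC was 0.10 in GB vs. GA (95% interval -0.13 to 0.34) and 0.37 in GA vs. CON (adjusted p = 0.125). SFRP2 was more abundant, with a mean of 56.1 FPKM in CON, and had intervals of -0.36 to 0.09 for GB against CON and -0.39 to 0.05 for GB against GA. Neighbors in the order DKK1, DKK3, DKK2, SFRP2 and SFRP1 did not overlap in CON.

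**Figure D4:**
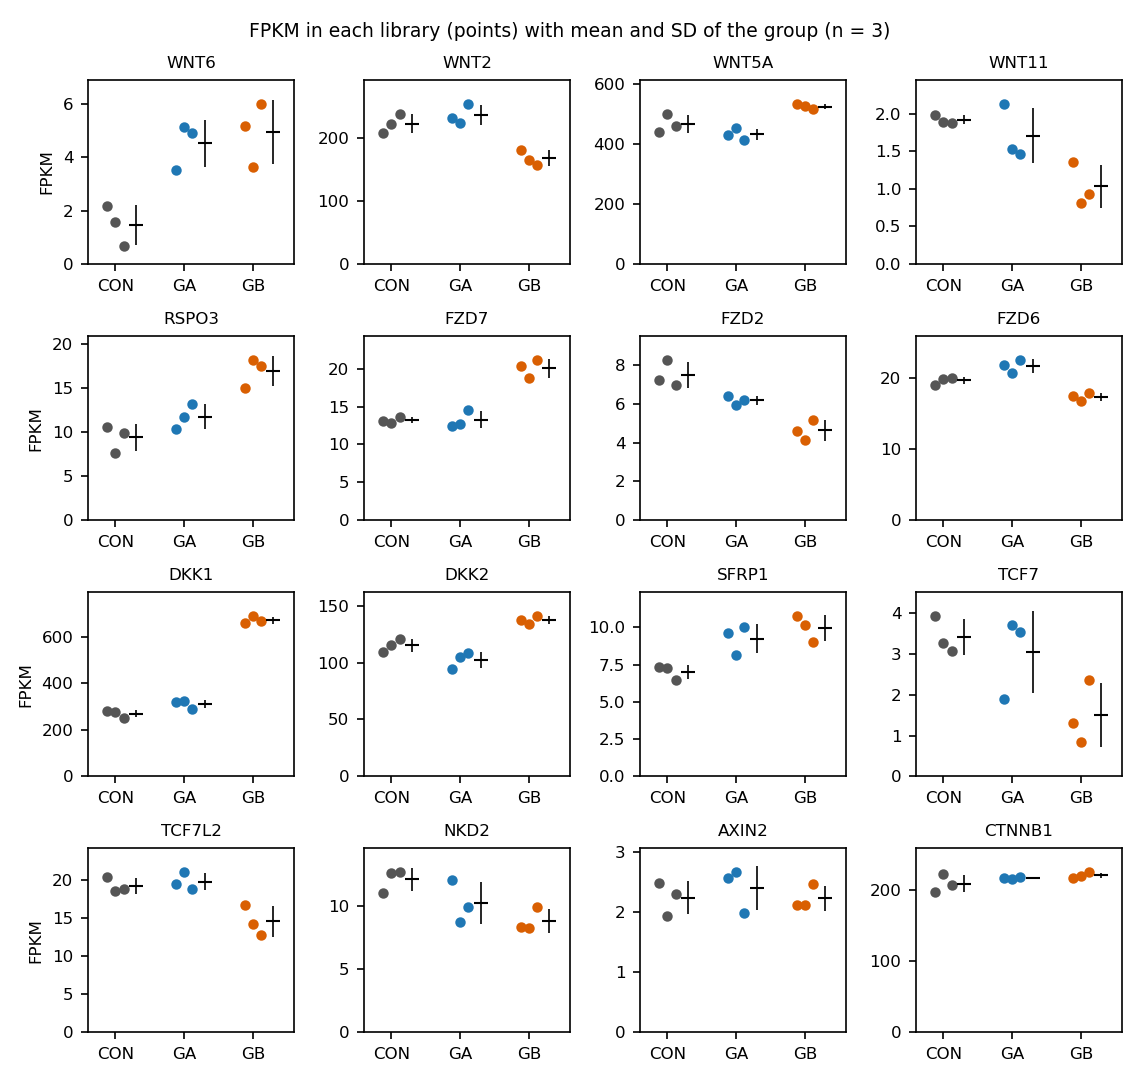
FPKM of selected WNT genes in each library (points), with the mean and SD of each group (n = 3) and each axis starting at 0. DKK1 is between 658.6 and 689.2 FPKM in the 3 GB libraries, WNT6 is higher in all GA and GB libraries than in CON, and the mean of TCF7 is lowest in GB, with GA1 inside the GB range.

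Inside the cell, 8 of 9 members were tested and 3 fell in GB vs. CON, with no member rising, against 17.3% and 16.2% of all genes. TCF7 and TCF7L2 encode factors that bind DNA and carry beta-catenin to its targets. TCF7 read 3.93, 3.28 and 3.08 FPKM in CON, 1.89, 3.71 and 3.55 in GA and 1.32, 0.83 and 2.36 in GB. GB was below CON, but GA1 fell within the GB range. The log2FC was -1.04 in GB vs. CON (SE 0.30, adjusted p = 0.0254) and -0.85 in GB vs. GA (adjusted p = 0.0600). The call was lost without CON1, CON2, GB1 or GB2, with adjusted p-values of 0.0747, 0.0554, 0.0665 and 0.0801, and with a pseudocount of 1 the log2FC no longer passed -1. It was also lost with the GC covariate (adjusted p = 0.1445). TCF7L2, the most abundant of these factors, read 20.37, 18.5 and 18.7 FPKM in CON, 19.43, 20.94 and 18.76 in GA and 16.69, 14.14 and 12.75 in GB. All GB libraries were below all others. TCF7L2 fell by 0.40 on the log2 scale in GB vs. CON (SE 0.096, adjusted p = 0.0120) and by 0.43 in GB vs. GA (SE 0.096, adjusted p = 0.00890). With the GC covariate its GB vs. CON value was -0.27 (adjusted p = 0.412).

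NKD2, an inhibitor that binds dishevelled, read 11.01, 12.59 and 12.63 FPKM in CON, 12.03, 8.72 and 9.88 in GA and 8.33, 8.22 and 9.91 in GB. GB was below CON and overlapped GA. The log2FC was -0.43 in GB vs. CON (SE 0.12, adjusted p = 0.0241). It did not pass without CON2, CON3, GB1 or GB2 (adjusted p between 0.0673 and 0.0777) or with the GC covariate (0.362). LEF1 and TCF7L1, the other factors of this family, had log2FC of -0.30 and -0.30 in GB vs. CON with adjusted p-values of 0.188 and 0.0796, and did not pass in GB vs. GA. CTNNB1 itself ranged from 197.8 to 222.3 FPKM in CON, from 216.2 to 218.6 in GA, and from 217.4 to 224.9 in GB. Its interval in GB vs. CON was -0.03 to 0.18 on the log2 scale. AXIN2, a scaffold of the destruction complex that is also a common target of beta-catenin, read 2.48, 1.94 and 2.3 FPKM in CON, 2.56, 2.66 and 1.99 in GA and 2.11, 2.11 and 2.47 in GB. The groups overlapped, and its log2FC was -0.00 in GB vs. CON (95% interval -0.33 to 0.32, adjusted p = 0.991). AXIN1, the other scaffold, had an interval of -0.20 to 0.04.

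The 17 members that were not tested had means under 0.5 FPKM. They were WNT8B, WNT16, WNT10A, WNT7B, WNT1, WNT3, RSPO1, RSPO2, RSPO4, LGR5, LGR6, FZD10, WIF1, SFRP4, SFRP5, FRZB and NKD1. Their highest value in any library was 1.11 FPKM, for WIF1 in GB2. WNT9A lay just inside the filter with a mean of 0.573 FPKM and WNT8B just outside it with 0.478. A value of 0 in 1 or more libraries was found for 14 members, while 38 were above 0 in all. The table gives values to 2 decimals and no read counts, so a value of this size may rest on few reads.

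The effect of E2 and P4 alone was examined in GA vs. CON. By limma 0 of 35 members were called, against 0.0716% of all genes, and 0 passed the adjusted p, against 0.453% of all genes. At an unadjusted p under 0.05, 9 members passed, against 19.3% of all genes, with 6 higher and 3 lower against 14.9% and 4.37%. The 6 higher ones were WNT6, FZD3, RSPO3, FZD6, DKK1 and SFRP1, and the 3 lower ones DKK2, FZD2 and FZD4. The libraries did not overlap for 5 members higher in GA, the same 6 without RSPO3, and for 4 lower, the same 3 and WNT2B, against 18.6% and 6.13% of all genes. WNT6 had the largest log2FC (1.41), and that of the other 8 lay between -0.33 and 0.37. DKK1 was higher in all GA libraries than in CON (log2FC 0.21, adjusted p = 0.115). Tested over the 3 groups at once with the F test of limma, 17 of 35 members differed at an adjusted p under 0.05, against 34.6% of all genes. They include FZD4, which had its lowest values in GA and GB1 and passed none of the pairwise comparisons.

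The rest of the pathway was described with a list of 92 further genes, of which 77 were tested. In GB vs. CON 7 rose and 27 fell at an adjusted p under 0.05 (9.09% and 35.1% of those tested, against 16.2% and 17.3% of all genes). Calls by limma numbered 0 of 77, against 4.01% of all genes. An unadjusted p under 0.05 was found for 42 of 77 (54.5%), against 43.8% of all genes. In GB vs. GA 6 rose and 21 fell (7.79% and 27.3% of those tested, against 9.87% and 19.2% of all genes). By role, and to be read against the same 16.2% and 17.3% of all genes, 8 of 12 common target genes changed in GB vs. CON, 4 in each direction, as did 4 of 13 genes of the destruction complex, all lower. Of the nuclear co-factors 2 of 14 rose and 5 fell. The dishevelled group had 3 of 6 lower, and the alternative receptors 1 higher and 3 lower of 8. The further secreted or membrane antagonists had 3 of 5 lower (TPBG, IGFBP4 and APCDD1) and 0 higher, whereas DKK1, DKK2 and SFRP1 rose. IGFBP4 had a log2FC of -0.40 (SE 0.082, adjusted p = 0.00494). The planar polarity and calcium branch had 4 of 15 lower and the secretion genes 1 of 3, with 0 higher in either.

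Well known target genes went in opposite directions. MYC, a growth regulator, rose from 60.5 to 73.2 FPKM in CON to 107.1 to 117.2 in GB (log2FC 0.71, SE 0.073, adjusted p = 8.62e-05), and by 0.47 with the GC covariate (0.0273). CCND1, which encodes the cell cycle protein cyclin D1, fell from 876.9 to 907.8 FPKM in CON to 630.6 to 633.0 in GB (log2FC -0.50, SE 0.032, adjusted p = 3.41e-06). In both genes the GB libraries lay apart from CON and GA. TLE4, a co-repressor that binds TCF factors, read 10.29, 10.78 and 10.43 FPKM in CON, 8.7, 9.53 and 8.78 in GA and 20.28, 18.05 and 18.89 in GB. It was the single called gene of the list in GB vs. GA (log2FC 1.04, SE 0.069, adjusted p = 4.51e-06) and had a log2FC of 0.83 in GB vs. CON. Calls in GB vs. GA thus numbered 1 of 77, a smaller share than the 3.64% of all genes. APC, a scaffold of the destruction complex, fell by 0.56 on the log2 scale in GB vs. CON (adjusted p = 5.67e-05) and by 0.70 in GB vs. GA (adjusted p = 1.32e-05), and PRICKLE2, of the planar polarity branch, fell by 0.81 in GB vs. GA (adjusted p = 0.000341). BCL9, a co-activator of beta-catenin, rose by 0.49 in GB vs. CON (adjusted p = 0.000149). In GA vs. CON 0 of the 77 passed the adjusted p by limma, against 0.453% of all genes. An unadjusted p under 0.05 was reached by 17 (22.1% of those tested, against 19.3% of all genes). The smallest adjusted p was that of BCL9 (log2FC 0.28, adjusted p = 0.0630), followed by TBX3, PPP2R5A, DAAM2 and JUN with log2FC of -0.28, 0.28, -0.22 and 0.25. TBX3 passed under the 3 other scalings (adjusted p between 0.02165 and 0.0490), and DAAM2 with median-of-ratios factors (0.0482).

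**Figure D5:**
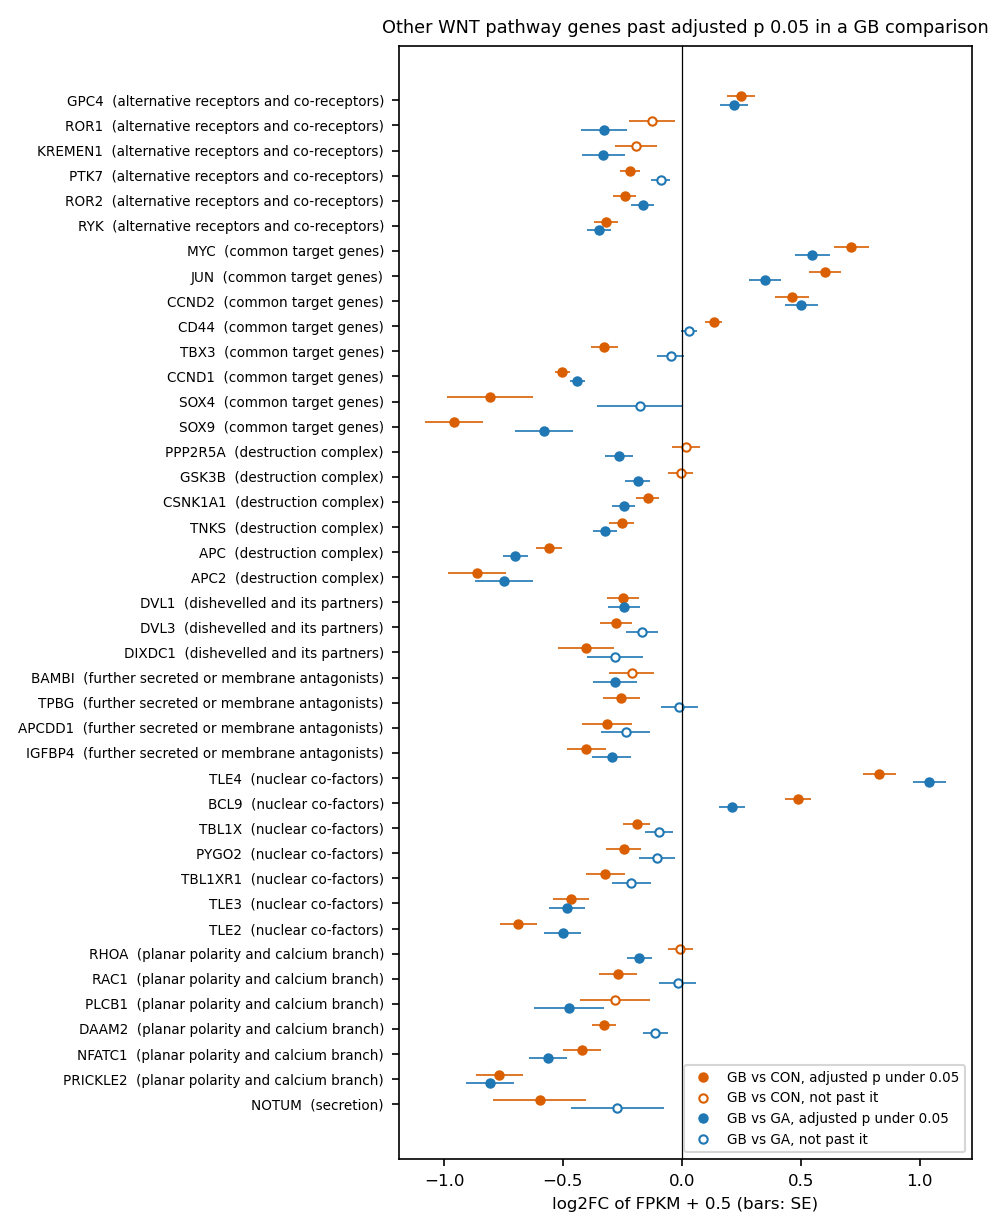
Log2FC of FPKM + 0.5 of GB against CON and against GA for the 41 further WNT pathway genes that passed an adjusted p of 0.05 in either comparison, with the role of each in brackets. Most lie below 0, and TLE4, MYC and BCL9 are among those above 0.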

How the data were processed

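The authors trimmed reads with fastp 0.21.0, removed rRNA reads with Bowtie2, aligned the rest with HISAT2 2.2.1, obtained read counts per gene with RSEM 1.3.3 and tested those with DESeq2 1.34.0. The annotation release and the use of strand: not given in the sources used here. As deposited, each gene has an FPKM in each library, computed by the authors to 2 decimals. These were used without further scaling in R 4.3.3 with limma 3.58.1, as log2(FPKM + 0.5), for the 12578 genes with a mean of at least 0.5 FPKM. A mean per group was fitted to the 9 libraries with a variance trend, and p-values were Benjamini-Hochberg adjusted over all tested genes. An exact permutation test of 3 against 3 libraries cannot go below 0.1 and was not used. The procedure was tested on simulated data. Members and lists were chosen with earlier results of these data known. Genes named with values in each library are members passing in any comparison and WNT6, and of the other pathway genes those called or the 5 with the smallest p per comparison; AXIN2 and TLE4 were shown by library after their values were seen. CTNNB1, MYC and CCND1 are given as ranges, and IGFBP4 as group means added after its values were seen. Same-numbered libraries did not deviate together, so no pairing was used. Alternatives were other pseudocounts, filters, scalings and variance models, a fit of 2 groups, a replicate block, the GC content of the reads and each library left out. Overlaps of genes come from the RefSeq annotation of ARS-UCD2.0, a later build than that of the alignment, so no coordinates are given. Some genes are not analysed here.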

Additional observations from a re-analysis of the deposited data

How the results depend on the processing

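Over 47 log2FC of single genes with 20 alternatives each, 826 of 940 values kept direction and side of the threshold, 108 no longer passed, 4 newly passed and 2 changed sign. With the GC content of the reads as covariate, GB vs. CON had 1 called member (DKK1) and 2 at an adjusted p under 0.05, and the F test 11. Leaving out each library gave for GB vs. CON 2 to 3 called and 11 to 17 at the adjusted p, for GB vs. GA 1 to 2 and 8 to 14, and 11 to 17 in the F test. TCF7 was the member gained in GB vs. GA, without GA1 or GB3. WNT6 in GB vs. GA ranged from -0.0486 (without GA1) to 0.289 (without GB2), with -0.0352 without GB3. The replicate numbers did not pair the libraries, as same-numbered deviations correlated between -0.0306 and 0.0772 and 1 of 9 libraries correlated best with its own number in both other groups. With the replicate block, for GB vs. CON 3 members were called and 16 passed the adjusted p, for GB vs. GA 1 and 12, for GA vs. CON 0 and 0, and 14 passed the F test. The shares of all genes under the alternatives of this section were not counted, so these counts describe the members alone. Values near 0.5 FPKM may rest on few reads, and depth cannot be read from the table.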
